A study of Mus musculus with 8 samples.

Results

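Ihh, Fgfr3, Panx3, Phospho1, Alpl, Spp1 and Mmp13 are genes of the prehypertrophic growth plate and of mineralizing tissue, and their RNA was followed in limb bud cells of fetal mice with a Sox9 mutation. They were taken by gene symbol from the deposited tables, with 4 treated as chondrocyte genes (Ihh, Fgfr3, Panx3 and Phospho1) and 3 as osteogenic genes (Alpl, Spp1 and Mmp13). They are 7 of the 739 genes in those tables. The tables list only genes that the authors called between genotypes in at least 1 fraction, so the other genes of the genome were not analysed here. The study models campomelic dysplasia, a human skeletal malformation caused by mutations of SOX9. It compared Y440X fetuses, genotype Sox9+/Y440X-IRES-EGFP, with WT fetuses, genotype Sox9+/IRES-EGFP. In both genotypes 1 Sox9 allele therefore carries the EGFP reporter and the other allele is untagged, and both were on a C57BL/6 background at E13.5. Limb buds of several fetuses per genotype were pooled, dissociated and sorted by fluorescence into cells with GFP, in which the tagged Sox9 allele is transcribed, and cells without it. The groups were Y440X GFP-positive, WT GFP-positive, Y440X GFP-negative and WT GFP-negative cells, each with 1 forelimb and 1 hindlimb library. The submitters count these as 2 biological replicates, so p-values measure the spread between limbs and any technical spread together.

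Long bones form from cartilage templates. SOX9 holds cells in the chondrocyte lineage, and chondrocytes that leave the cell cycle become prehypertrophic and then hypertrophic before bone replaces them. Prehypertrophic cells secrete Indian hedgehog, the product of Ihh, which drives chondrocyte proliferation and the differentiation of osteoblasts in the neighbouring perichondrium. Fgfr3 encodes a receptor tyrosine kinase that restrains chondrocyte proliferation, Panx3 a membrane channel of prehypertrophic chondrocytes and osteoblasts, and Phospho1 a phosphatase that supplies phosphate inside matrix vesicles. Alpl encodes tissue-nonspecific alkaline phosphatase, which removes the mineralization inhibitor pyrophosphate. Spp1 encodes osteopontin, a phosphoprotein of bone matrix that macrophages and other cells also make, and Mmp13 a collagenase of late hypertrophic chondrocytes and osteoblasts.

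In the GENCODE M21 annotation of GRCm38, Ihh lies on the minus strand at chr1:74945315-74951672 in 3 exon blocks, and Fgfr3 on the plus strand at chr5:33721674-33737068 in 16. Panx3 lies on the minus strand at chr9:37659902-37669235 in 5 exon blocks, and Phospho1 on the plus strand at chr11:95824499-95832140 in 3. Alpl lies on the minus strand at chr4:137741733-137796384 in 18 exon blocks, Spp1 on the plus strand at chr5:104435118-104441050 in 8, and Mmp13 on the plus strand at chr9:7272514-7283331 in 10. Phospho1 shares 1818 exon bases with Zfp652 on its own strand and 1708 with Abi3 on the other, so its counts are uncertain. Fgfr3 shares 998 exon bases with an unverified transcript on the other strand, and Spp1 shares 309 with another on its own strand. Strand use in counting was not stated.

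The promoters of a chondrocyte gene and of the 3 osteogenic genes are shown because these genes moved differently between genotypes and fractions. Each is the 250 bases just before the transcript start in RefSeq on GRCm38.p6, read 5′ to 3′ on the gene's own strand. Capitals mark matches, on either strand, to the SOX motif ACAAAG, the second SOX motif ACAATG, the RUNX motif TGTGGT, the GLI motif GACCACCCA and the TATA box motif TATAAA. The windows are chr1:74951673-74951922 on the minus strand for Ihh, chr4:137796385-137796634 on the minus strand for Alpl, chr5:104434861-104435110 on the plus strand for Spp1 and chr9:7272264-7272513 on the plus strand for Mmp13.
Ihh: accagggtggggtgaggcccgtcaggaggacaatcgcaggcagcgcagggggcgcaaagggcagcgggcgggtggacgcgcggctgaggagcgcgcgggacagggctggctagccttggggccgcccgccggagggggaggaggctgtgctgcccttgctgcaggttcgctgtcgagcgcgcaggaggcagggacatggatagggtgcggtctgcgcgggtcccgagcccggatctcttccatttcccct
Alpl: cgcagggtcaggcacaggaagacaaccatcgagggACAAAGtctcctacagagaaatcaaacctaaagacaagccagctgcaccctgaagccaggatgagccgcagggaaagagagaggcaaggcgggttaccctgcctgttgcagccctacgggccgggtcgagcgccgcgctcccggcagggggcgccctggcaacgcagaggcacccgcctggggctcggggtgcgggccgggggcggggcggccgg
Spp1: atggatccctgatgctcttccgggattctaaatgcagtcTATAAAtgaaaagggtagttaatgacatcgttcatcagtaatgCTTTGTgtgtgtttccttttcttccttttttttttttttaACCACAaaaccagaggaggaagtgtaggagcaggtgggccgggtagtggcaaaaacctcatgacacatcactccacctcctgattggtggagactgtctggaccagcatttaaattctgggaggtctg
Mmp13: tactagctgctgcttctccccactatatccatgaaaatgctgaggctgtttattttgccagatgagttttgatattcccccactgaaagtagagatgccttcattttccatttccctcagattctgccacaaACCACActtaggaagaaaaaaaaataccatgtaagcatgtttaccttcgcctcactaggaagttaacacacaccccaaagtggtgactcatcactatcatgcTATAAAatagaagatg
The Ihh window held 72% G and C and none of the 5 motifs. The Alpl window held 68.4% G and C and 1 SOX match, 215 to 210 bases before the start. The Spp1 window held 43.6% G and C, with a TATA box match 211 to 206 bases before the start, a SOX match at 168 to 163 and a RUNX match at 128 to 123. The Mmp13 window held 40.4% G and C, with a RUNX match 118 to 113 bases before the start and a TATA box match at 16 to 11. The RefSeq table gave 9 windows for 6 of the 7 genes, and neither Fgfr3 window nor the Phospho1 window held a match. A second Alpl window held 2 SOX matches, at 246 to 241 and 146 to 141 bases before its start, and a TATA box match at 192 to 187. A second Spp1 window held a SOX match at 243 to 238. Among 32851 mouse windows of this length, ACAAAG was present in 16.5%, ACAATG in 10.7%, TGTGGT in 14%, GACCACCCA in 0.225% and TATAAA in 12.4%. These are matches of letters, and binding was not measured.

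Effective library sizes were 44843000 to 45553000 reads in Y440X GFP-positive, 38577000 to 42559000 in WT GFP-positive, 48093000 to 51143000 in Y440X GFP-negative and 44498000 to 47253000 in WT GFP-negative cells. Levels are given as counts per 1000000 reads of these sizes (CPM). Sox9, the gene that was mutated, stood at 475 and 560.0 CPM in Y440X GFP-positive forelimb and hindlimb and at 1070.5 and 925 CPM in WT, but these counts sum both alleles and do not check for the mutation. The cartilage collagen Col2a1 was at 7765 and 5929 CPM in Y440X GFP-positive cells, at 23730 and 16001 in WT GFP-positive cells and at most 248 in every GFP-negative library. Col1a1, Runx2, Sp7 and Ibsp, which define osteoblasts, are not among the listed genes and were not analysed here. Differences between genotypes were tested with edgeR's quasi-likelihood test, with p adjusted by Benjamini-Hochberg over all 739 genes and called at 0.05. In bulk libraries, fewer cells of a type and less RNA per cell cannot be told apart.

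The 4 chondrocyte genes all fell in Y440X GFP-positive cells. Of the 7 genes, 6 were called in this comparison (4 lower and 2 higher), where 55.9% of all listed genes were called, 40.1% as lower and 15.8% as higher. The authors listed 5 of the 7 genes for this same contrast, so their calls repeat the selection and are given as a description. Of 16244 genes tested by the authors, 1.40% were listed as lower and 0.468% as higher in GFP-positive cells, and 2.62% as lower and 0.523% as higher in GFP-negative cells. The 5 are Ihh, Fgfr3, Panx3, Phospho1 and Alpl.

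Ihh had 20.7 CPM in Y440X GFP-positive forelimb and 35.9 in hindlimb, against 120.6 and 99.3 CPM in WT. Both Y440X libraries lay below both WT libraries, with means of 28.3 ± 10.8 and 110.0 ± 15.1 CPM (SD, n = 2 each). The log2 fold change was -1.96 ± 0.27 (SE, edgeR adjusted p = 4.4e-06), or 3.89-fold lower. In the authors' deposited table Ihh had an FDR of 0.0106 over their own gene set and was 96th of 227 genes in order of FDR.

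Fgfr3 was the most abundant of the 7 genes, at 290.0 and 272 CPM in Y440X GFP-positive forelimb and hindlimb, against 838 and 720 CPM in WT. The genotypes did not overlap, and the 2 Y440X libraries lay closer together (281 ± 12.8 CPM) than the WT libraries (779 ± 83.4 CPM; SD, n = 2 each). Its log2 fold change was -1.47 ± 0.27 (edgeR adjusted p = 0.00012), or 2.77-fold lower.

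Panx3 had the smallest estimate of the 4. It had 29.7 and 38.5 CPM in Y440X GFP-positive forelimb and hindlimb, against 70.1 and 77.4 CPM in WT. Hindlimb was the higher limb in both genotypes, and the genotypes did not overlap. The log2 fold change was -1.11 ± 0.24 (edgeR adjusted p = 0.0005), or 2.16-fold lower. TMM (trimmed mean of M-values) over the listed genes was used as a second scaling in place of the authors' library sizes. For these cells it added 0.66 to the median of all listed genes. Panx3 then had -0.44 and was no longer called (edgeR adjusted p = 0.117). TMM assumes that most genes do not change, but these genes were listed because they changed in at least 1 fraction. Values with TMM, here and below, therefore show only how far a result depends on scaling.

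Phospho1 was the rarest of the chondrocyte genes, with 28 and 22 reads (0.615 and 0.491 CPM) in Y440X GFP-positive forelimb and hindlimb, against 84 and 62 reads (2.18 and 1.46 CPM) in WT. Its genotypes did not overlap either, with a log2 fold change of -1.71 ± 0.35 (edgeR adjusted p = 0.00023), or 3.27-fold lower. Per kilobase, mean levels in Y440X GFP-positive cells ran from 63.9 RPKM for Fgfr3 to 13.6 for Panx3, 11.6 for Ihh and 0.289 for Phospho1. In WT the order was Fgfr3 (177 RPKM), Ihh (45.01), Panx3 (29.3) and Phospho1 (0.951). Panx3 and Ihh thus changed places, but their Y440X libraries overlapped in RPKM. The osteogenic genes were lower than Ihh and Panx3 in both, with Alpl at 7.93, Spp1 at 4.16 and Mmp13 at 0.0661 RPKM in Y440X, against 3.20, 3.35 and 0.00969 RPKM in WT, where Spp1 and Alpl overlapped. In GFP-negative cells Fgfr3 stayed highest (4.61 RPKM in Y440X and 9.51 in WT), followed by Alpl (1.63) and Spp1 (0.913) in Y440X and by Spp1 (4.39) and Alpl (3.92), which overlapped, in WT. The other 4 lay between 0.0515 and 0.153 RPKM in Y440X and between 0.166 and 0.399 in WT, where each overlapped its neighbour in the order.

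**Figure D1:**
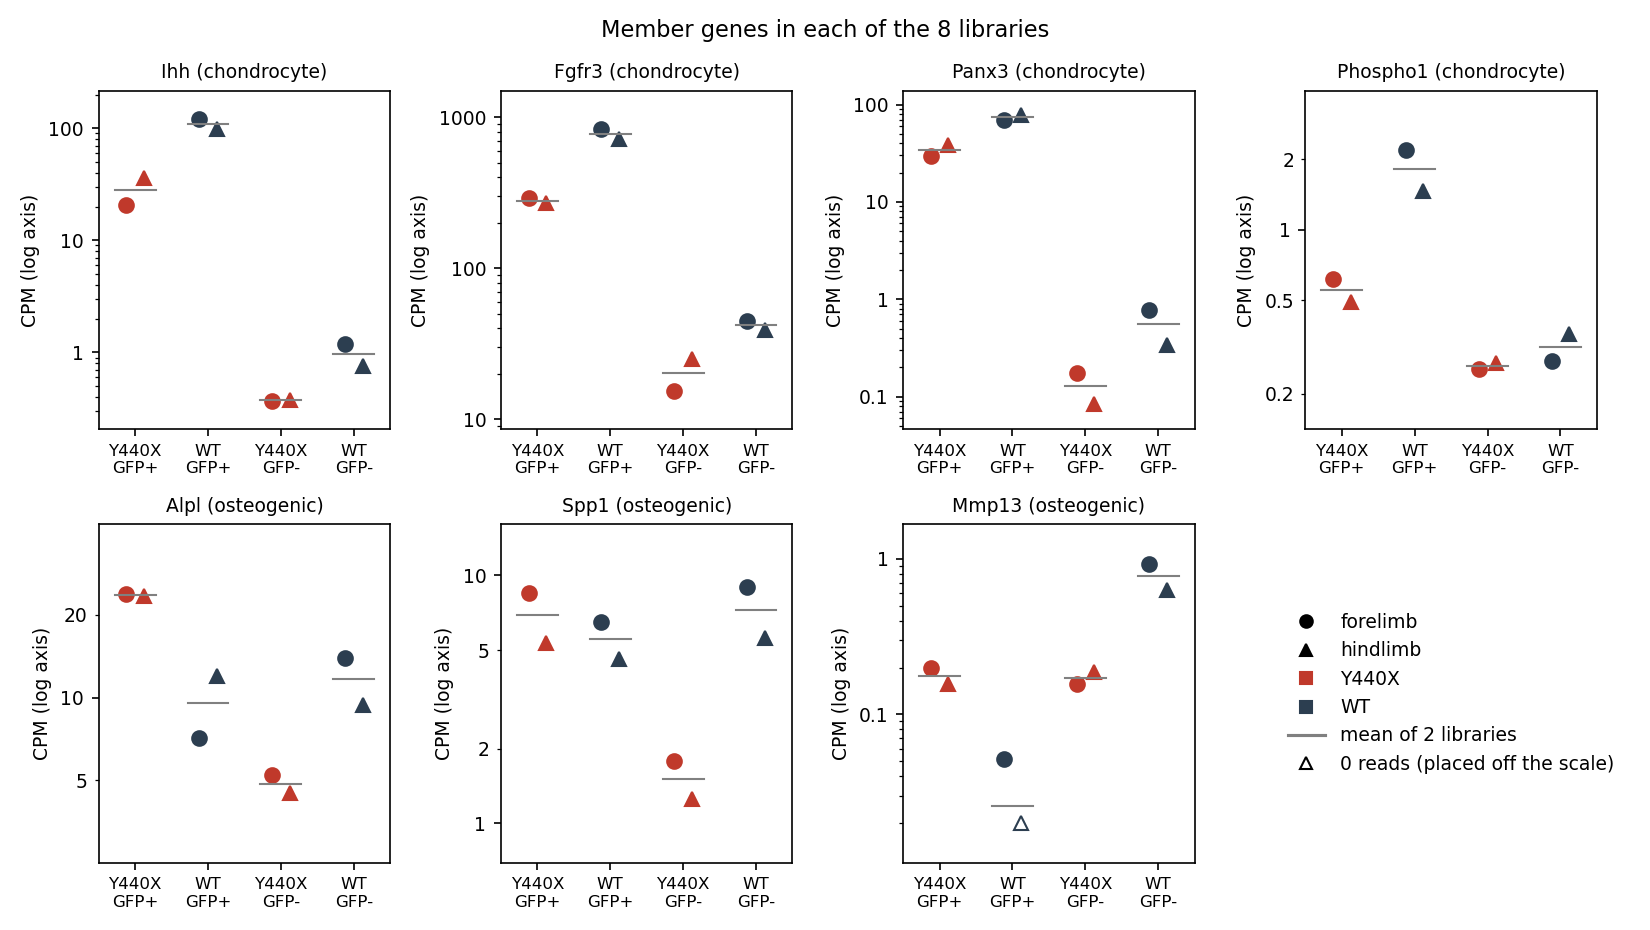
Level of each gene in each of the 8 libraries, in CPM on a log axis. Circles are forelimb, triangles hindlimb, red is Y440X, dark blue is WT, grey lines are means of 2 libraries, and the open triangle is the WT GFP-positive hindlimb library with 0 Mmp13 reads. The 4 chondrocyte genes are lower in Y440X GFP-positive than in WT GFP-positive libraries, and Alpl and Mmp13 are higher.

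None of the osteogenic genes was called lower in the GFP-positive cells. Alpl had 23.8 and 23.5 CPM in Y440X GFP-positive forelimb and hindlimb, against 7.15 and 11.96 CPM in WT. The 2 Y440X libraries were nearly equal and both lay above WT, whose limbs differed. The log2 fold change was 1.31 ± 0.26 (edgeR adjusted p = 0.00023), or 2.47-fold higher, and Alpl was 41st of the 76 genes listed as higher in the authors' deposited table, with an FDR of 0.0251.

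Spp1 and Mmp13 were listed by the authors for the GFP-negative contrast only, so their GFP-positive values were not what chose them. Of the 510 genes listed for GFP-negative cells, 13.1% were called higher and 22.9% lower in GFP-positive cells. Spp1 had 8.45 and 5.35 CPM in Y440X GFP-positive forelimb and hindlimb, against 6.51 and 4.61 CPM in WT. Across limbs the genotypes overlapped, though Y440X lay above WT in each limb. Spp1 was not called (log2 fold change 0.31 ± 0.28, edgeR adjusted p = 0.354), also with limb as a block. With TMM over the listed genes it had 0.98 and was called (adjusted p = 0.002).

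Mmp13 was near the limit of detection in GFP-positive cells, with 9 and 7 reads in Y440X forelimb and hindlimb, against 2 and 0 in WT. The pooled ratio of CPM was 7.18, with an exact 95% counting interval of 1.69 to 64.4. edgeR called it higher (log2 fold change 2.70 ± 1.24, adjusted p = 0.021), but this rests on single libraries. The call was lost with DESeq2 (adjusted p = 0.142), without Y440X forelimb (0.115), without Y440X hindlimb (0.0517) and without WT hindlimb (0.123). Its log2 value was 1.72 without WT hindlimb and 5.99 without WT forelimb.

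**Figure D2:**
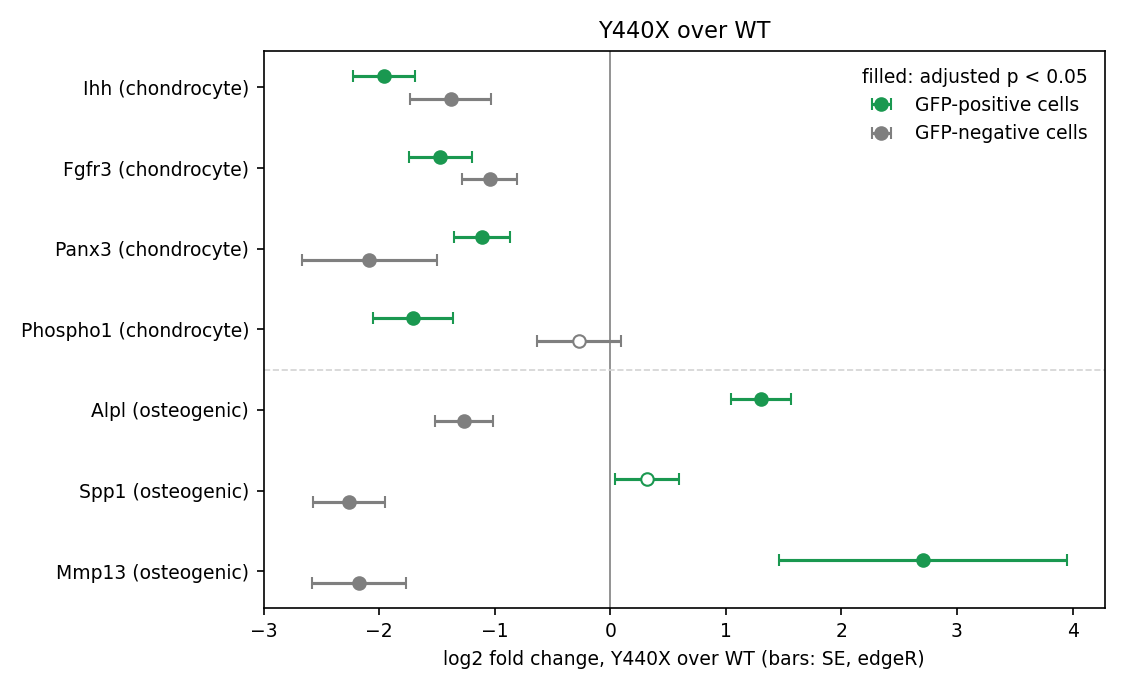
Log2 fold change of Y440X over WT (points are edgeR estimates, filled where adjusted p was under 0.05, and bars are ± 1 SE) in GFP-positive and GFP-negative cells for each gene. In GFP-positive cells the chondrocyte genes lie between -1.96 and -1.11 and the osteogenic genes between 0.31 and 2.70. In GFP-negative cells the estimates lie between -2.26 and -0.27, where those of Fgfr3 and Phospho1 turn positive with TMM over the listed genes.

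In GFP-negative cells 6 of the 7 genes were lower in Y440X and Phospho1 was not called. In this comparison 80.0% of all listed genes were called, 67.3% as lower and 12.7% as higher, so 6 of 7 is not far from the share over all listed genes. The median log2 fold change was -1.21 for the chondrocyte genes, -2.17 for the osteogenic genes and -1.15 for all listed genes. TMM over the listed genes added 1.07 to the median of all genes and left 2 of the 7 called.

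Spp1 had the lowest estimate of the 7, followed by Mmp13. Spp1 had 1.78 and 1.25 CPM in Y440X GFP-negative forelimb and hindlimb, against 8.95 and 5.60 CPM in WT, with no overlap. The log2 fold change was -2.26 ± 0.32 (edgeR adjusted p = 0.00062), or 4.80-fold lower, and with TMM over the listed genes -1.18 (adjusted p = 0.0080). Mmp13 had 8 and 9 reads (0.156 and 0.187 CPM) in Y440X, against 44 and 28 reads (0.931 and 0.629 CPM) in WT. These also did not overlap (log2 fold change -2.17 ± 0.41, edgeR adjusted p = 0.0012; -1.10 and 0.044 with TMM). Alpl had 5.22 and 4.51 CPM in Y440X, against 13.9 and 9.42 CPM in WT. It fell by 1.26 ± 0.25 on the log2 scale (edgeR adjusted p = 0.0020), and with TMM over the listed genes it had -0.18 and was not called. All 3 were listed by the authors for this contrast.

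The chondrocyte genes were rare in GFP-negative cells apart from Fgfr3. Fgfr3 had 15.4 and 25.1 CPM in Y440X GFP-negative forelimb and hindlimb, against 44.6 and 39.0 CPM in WT. It fell by 1.05 ± 0.24 on the log2 scale (edgeR adjusted p = 0.0038), but with TMM over the listed genes the value was 0.05. Panx3 had 9 and 4 reads in Y440X, against 37 and 15 in WT, and a log2 fold change of -2.09 ± 0.58 (edgeR adjusted p = 0.0068). That value moved to -1.35 without WT forelimb and to -2.72 without Y440X forelimb, and to -1.02, not called, with TMM over the listed genes. In the authors' deposited table Panx3 was 399th of the 425 genes lower in GFP-negative cells, with an FDR of 0.0433 near their limit of 0.05.

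Ihh and Phospho1 were not listed for GFP-negative cells, where 41.9% of the 303 genes listed for GFP-positive cells were called lower. Ihh had 19 and 18 reads (0.372 and 0.374 CPM) in Y440X, against 56 and 34 reads (1.19 and 0.764 CPM) in WT. The genotypes did not overlap, and Ihh was lower with a log2 fold change of -1.38 ± 0.35 (edgeR adjusted p = 0.0059). This call was adjusted over the 739 listed genes alone. Among the 16244 genes tested by the authors Ihh was not listed for these cells, though its change exceeded their smallest listed change of 1. With TMM over the listed genes Ihh had -0.30 and was not called. Phospho1 had 13 reads in each Y440X GFP-negative library, against 13 and 16 in WT. Its difference was not detectable at this depth (log2 fold change -0.27 ± 0.36, edgeR adjusted p = 0.515; 0.79 with TMM over the listed genes).

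The Y440X effect on the osteogenic genes differed between the sorted fractions, which was tested as an interaction over all 8 libraries. The authors listed all 3 as lower in Y440X GFP-negative cells, and Alpl also as higher in GFP-positive cells, so the sign of the interaction is partly set by that selection and is no independent evidence. The GFP-positive effect minus the GFP-negative effect was 2.57 ± 0.38 on the log2 scale for Alpl (edgeR adjusted p = 0.0007), 2.58 ± 0.46 for Spp1 (0.0013) and 4.88 ± 1.14 for Mmp13 (0.0015). Alpl was higher in Y440X GFP-positive and lower in Y440X GFP-negative cells, while Spp1 was called in GFP-negative cells alone. Phospho1, listed as lower in GFP-positive cells, had the opposite sign, at -1.44 ± 0.54 (edgeR adjusted p = 0.040). That call was lost with DESeq2 (0.115) and when any of 6 of the 8 libraries was left out (adjusted p of 0.0526 to 0.126). Those 6 were Y440X GFP-positive hindlimb, WT GFP-positive forelimb and each of the 4 GFP-negative libraries.

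The interaction was not called for Fgfr3 (-0.42 ± 0.34, edgeR adjusted p = 0.307), Ihh (-0.57 ± 0.47, 0.321) or Panx3 (0.97 ± 0.59, 0.160). A p that misses the threshold does not show equal effects, and Ihh (-1.20) and Fgfr3 (-1.07) were called with TMM over the listed genes. The Panx3 value ran from 0.24 without WT GFP-negative forelimb to 1.61 without Y440X GFP-negative forelimb, and was called without WT GFP-negative hindlimb alone (1.45, adjusted p = 0.0388). With limma on log2(CPM + 0.5) it was -0.39. In all 4 of the 7 genes were called, against 49.9% of all listed genes, 31.8% with a positive and 18.1% with a negative value. The median interaction was -0.50 for the chondrocyte genes, 2.58 for the osteogenic genes and 0.61 for all listed genes. A positive value was not particular to the osteogenic genes. The median was 2.45 for 14 macrophage markers in the tables (13 called positive) and 2.02 for 10 endothelial markers (9 called positive). For epithelial, muscle and neutrophil markers it was 0.40, 0.49 and -3.075.

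Markers of other cells moved in the same libraries. A marker is in the tables only where the authors listed it for a change in at least 1 fraction. Counts of listed markers, here and in the next paragraph, therefore partly restate that selection. In Y440X GFP-negative cells 67.3% of all listed genes were called lower and 12.7% higher. The shares in GFP-positive cells were 40.1% and 15.8%. Of 18 macrophage markers 14 were in the tables, and all 14 were lower in Y440X GFP-negative cells, with a median log2 fold change of -1.85. Their summed level ran from 115 to 141 CPM in Y440X GFP-negative and 491 to 564 CPM in WT GFP-negative libraries. In GFP-positive cells it was 7.34 to 9.46 CPM in Y440X and 8.60 to 9.25 CPM in WT. Of 15 endothelial markers 10 were in the tables and all 10 were lower in Y440X GFP-negative cells (113 to 115 CPM, against 252 to 264 CPM in WT). With TMM over the listed genes 12 of the 14 macrophage and 1 of the 10 endothelial markers were called lower, and Robo4 among the endothelial markers changed sign. None of these macrophage or endothelial markers was at 0 in any library. Of 10 neutrophil markers 6 were in the tables and all 6 were higher in Y440X GFP-negative cells (13.9 to 19.2 CPM, against 1.63 to 1.64 CPM in WT), also with TMM, and 5 of the 6 were at 0 in at least 1 library. The only osteoclast marker in hand, Oscar, was lower there too (log2 fold change -1.41 ± 0.37, edgeR adjusted p = 0.0061), but was not called with TMM. Acp5, Ctsk and Mmp9, which define osteoclasts, were not analysed here. The part of these cells in the osteogenic values was not tested.

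Set against the macrophage receptor Mrc1 within each library, Spp1 gave 6.11 and 5.50 reads per 100 Mrc1 reads in Y440X GFP-negative forelimb and hindlimb, against 5.85 and 3.97 in WT. Mmp13 gave 0.537 and 0.824 in Y440X, against 0.609 and 0.446 in WT. Both ratios overlapped between genotypes across limbs, though Spp1 was higher in Y440X in each limb. These ratios depend on the marker chosen. In Y440X GFP-negative cells Mrc1 had a lower log2 fold change (-2.50) than the median of the 14 macrophage markers (-1.85). The 14 ran from -3.33 for Lyve1 to -1.42 for Fcer1g, and Spp1 (-2.26) and Mmp13 (-2.17) lay within that range. Alpl gave 17.9 and 19.9 reads per 100 Mrc1 reads in Y440X, against 9.12 and 6.67 in WT, with no overlap. In GFP-positive cells 10 of 14 epithelial markers were in the tables and all 10 were higher in Y440X, also with TMM (59.9 to 83.8 CPM, against 22.4 to 22.5 CPM in WT). The 10 endothelial markers summed to 19.8 to 22.3 CPM in Y440X GFP-positive libraries, against 14.6 to 14.7 CPM in WT (4 called higher, and 9 with TMM). The part of these cells in the higher Alpl was not tested. In GFP-negative cells 8 of the 10 epithelial markers were also higher in Y440X (10 with TMM; 106 to 125 CPM, against 45.1 to 46.7 CPM in WT). Of 14 muscle markers 5 were in the tables and all 5 were lower in Y440X GFP-negative cells (42.1 to 51.9 CPM, against 106 to 108 CPM in WT), with 0 called and Actn2 changing sign with TMM.

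The chondrocyte genes were higher in GFP-positive than in GFP-negative cells of both genotypes. The authors did not select on this difference, but a gene lower in 1 fraction of Y440X has its fraction ratio moved by that alone. In Y440X, GFP-positive over GFP-negative cells gave log2 values of 7.999 ± 0.443 for Panx3, 6.24 ± 0.36 for Ihh, 3.79 ± 0.23 for Fgfr3 and 1.07 ± 0.39 for Phospho1. The edgeR adjusted p was 2.8e-09 for Panx3, 1.9e-08 for Ihh, 8.0e-08 for Fgfr3 and 0.025 for Phospho1. The Phospho1 call was lost with DESeq2 (0.219) and without Y440X GFP-positive forelimb (0.116), Y440X GFP-negative forelimb (0.101) or Y440X GFP-negative hindlimb (0.0819). In WT the values were 7.02 ± 0.33 for Panx3, 6.81 ± 0.29 for Ihh, 4.22 ± 0.28 for Fgfr3 and 2.51 ± 0.39 for Phospho1 (edgeR adjusted p of 1.9e-15, 1.7e-15, 2.6e-12 and 1.2e-06). Panx3 moved to 8.64 without Y440X GFP-negative forelimb, and to 7.76 in WT without WT GFP-negative forelimb.

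None of the osteogenic genes was called higher in GFP-positive cells of WT. Alpl (log2 value -0.29 ± 0.27, edgeR adjusted p = 0.338; 0.07 with TMM over the listed genes) and Spp1 (-0.39 ± 0.28, 0.194) overlapped between the WT fractions. Alpl was called lower in WT GFP-positive cells without their hindlimb library (-0.71, 0.0395), and Spp1 without WT GFP-negative hindlimb (-0.69, 0.048). Mmp13 was lower in WT GFP-positive cells, with 2 reads against 72 in WT GFP-negative cells (edgeR adjusted p = 2.8e-07). The ratio of CPM was 0.0314, with an exact 95% counting interval of 0.00373 to 0.118, and the fitted log2 value of -4.83 lay at -3.84 or -8.14 when either WT GFP-positive library was left out. In Y440X, Alpl (2.28 ± 0.23, edgeR adjusted p = 2.8e-06) and Spp1 (2.19 ± 0.32, 5.3e-05) were higher in GFP-positive than in GFP-negative cells. Mmp13 was not called there, with 16 reads against 17 (ratio of CPM 1.03, exact 95% counting interval 0.489 to 2.17; edgeR adjusted p = 0.939).

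In Y440X 6 of the 7 genes were called between fractions, all higher in GFP-positive cells, against 67.9% of all listed genes called, 28.1% as higher and 39.8% as lower. In WT 5 of the 7 were called, 4 higher and 1 lower, against 80.8% of all listed genes called, 30.6% higher and 50.2% lower. The median log2 value of the osteogenic genes was 2.19 in Y440X and -0.39 in WT, and over all listed genes it was -0.24 in Y440X and -0.82 in WT. The difference of these 2 contrasts is the interaction given above.

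**Figure D3:**
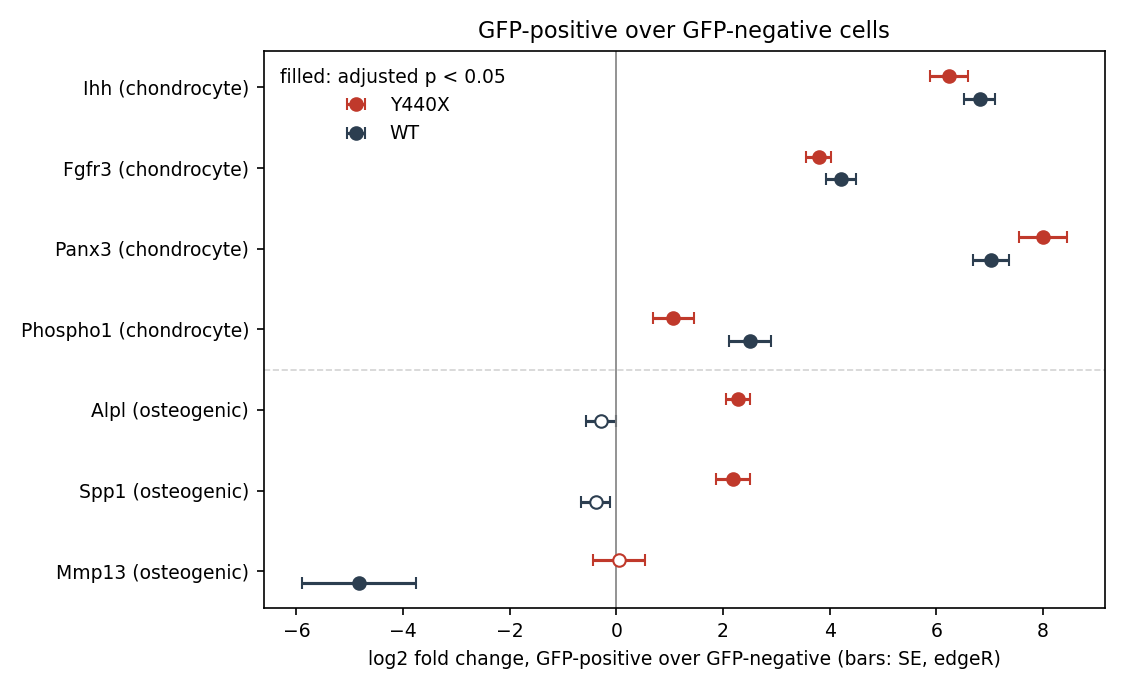
Log2 fold change of GFP-positive over GFP-negative cells (points are edgeR estimates, filled where adjusted p was under 0.05, and bars are ± 1 SE) in Y440X and in WT. Ihh, Fgfr3, Panx3 and Phospho1 lie above 0 in both genotypes, while Alpl and Spp1 lie at 2.28 and 2.19 in Y440X and between -0.39 and -0.29 in WT, where Alpl turns to 0.07 with TMM over the listed genes.

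The GFP-negative level was also taken as a percentage of the GFP-positive level of the same limb and genotype. In Y440X, GFP-negative Ihh was 1.795% and 1.04% of the GFP-positive level in forelimb and hindlimb, against 0.982% and 0.769% in WT. Panx3 was at 0.592% and 0.216% in Y440X, against 1.12% and 0.436% in WT. For comparison, Col2a1 was at 1.88% and 2.76% in Y440X and 1.05% and 1.37% in WT. Fgfr3 was higher, at 5.31% and 9.24% in Y440X, against 5.33% and 5.42% in WT.

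Phospho1 kept more of its level outside the GFP-positive cells, at 41.4% and 55.1% in Y440X, against 12.6% and 24.7% in WT. These percentages rest on 13 to 16 reads per GFP-negative library, where Phospho1 was not called between genotypes. For Alpl the GFP-negative level was 21.9% and 19.2% of the GFP-positive level in Y440X, against 195% and 78.7% in WT. For Spp1 it was 21.1% and 23.3% in Y440X, against 138% and 122% in WT. The macrophage marker Mrc1 was at 1701% and 2483% in Y440X and 10000% and 11550% in WT, and the endothelial marker Pecam1 at 413% and 592% in Y440X and 1680% and 2360% in WT. Mmp13, on few reads, was at 79.2% and 120% in Y440X and at 1796% in WT forelimb, with no value in WT hindlimb, where it had 0 GFP-positive reads. Alpl and Spp1 thus stood between Col2a1 and these markers in every limb and genotype, while Mmp13 exceeded Pecam1 in WT forelimb and Phospho1 exceeded Alpl and Spp1 in Y440X. Free RNA or missorted cells were not measured, and their part in the GFP-negative reads of Ihh and Panx3 was not tested.

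**Figure D4:**
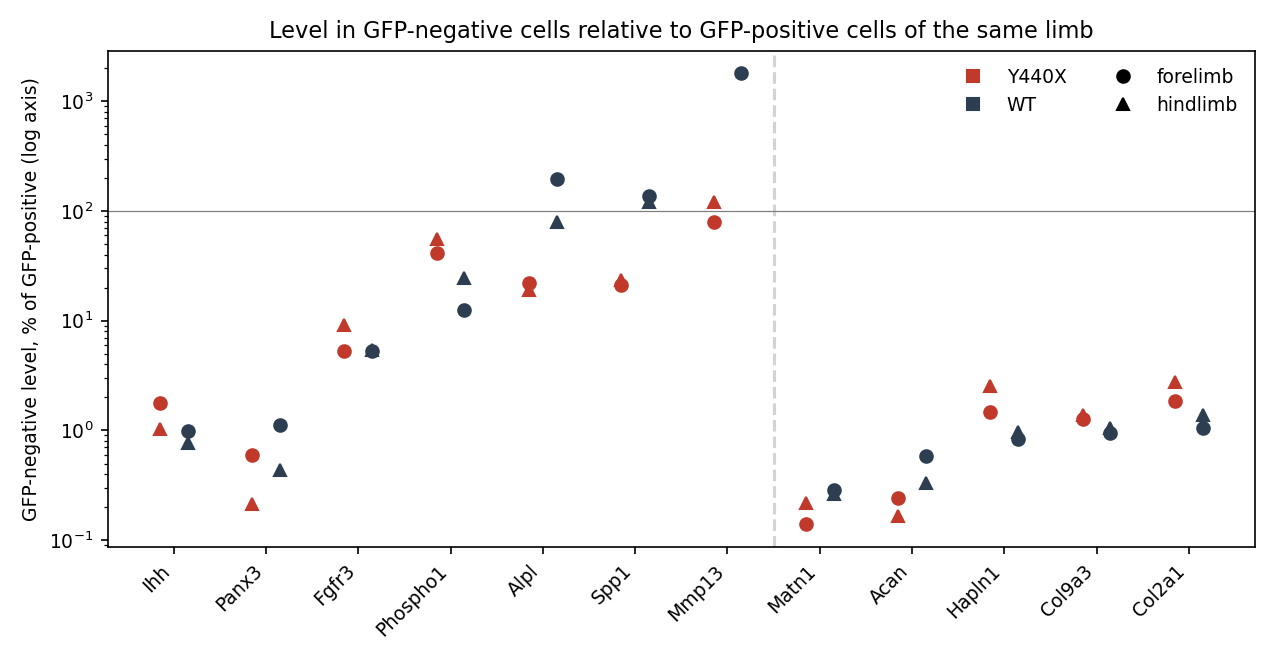
GFP-negative level as a percentage of the GFP-positive level of the same limb and genotype, on a log axis. Shown are the 7 genes and the cartilage genes Matn1, Acan, Hapln1, Col9a3 and Col2a1. Ihh and Panx3 lie between 0.216% and 1.795%, Fgfr3 between 5.31% and 9.24%, and Spp1 between 21.1% and 23.3% in Y440X and at 138% and 122% in WT.

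Ratios taken within a library do not depend on the library size. Per 100 Ihh reads, Y440X GFP-positive forelimb and hindlimb held 115 and 65.3 Alpl reads, against 5.93 and 12.04 in WT. Per 100 Panx3 reads they held 80.1 and 60.9 Alpl reads, against 10.2 and 15.5 in WT. Neither ratio overlapped between genotypes. Spp1 per 100 Ihh reads was 40.8 and 14.9 in Y440X GFP-positive libraries, against 5.39 and 4.64 in WT, also without overlap.

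Ratios between the chondrocyte genes differed as well. Panx3 per 100 Ihh reads was 144 and 107 in Y440X GFP-positive forelimb and hindlimb, against 58.1 and 77.9 in WT, with no overlap. Against Col2a1, which is itself lower in Y440X, most ratios overlapped between genotypes. Ihh per 1000 Col2a1 reads was 2.67 and 6.06 in Y440X, against 5.08 and 6.21 in WT. Fgfr3 per 1000 Col2a1 reads was 37.4 and 45.9 in Y440X, against 35.3 and 44.97 in WT, and Panx3 was 3.83 and 6.496, against 2.96 and 4.84. These 3 ratios overlapped across limbs, but within each limb Ihh was lower and Fgfr3 and Panx3 were higher in Y440X. Phospho1 per 1000 Col2a1 reads was 0.0792 and 0.0828 in Y440X, against 0.0918 and 0.0910 in WT, and Alpl was 3.07 and 3.96, against 0.302 and 0.747, neither of which overlapped. The Phospho1 ratio rests on 28 and 22 Phospho1 reads in Y440X and 84 and 62 in WT, so its small difference is uncertain from counting error alone.

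Per 1000 Sox9 reads, Ihh was at 43.6 and 64.2 in Y440X GFP-positive cells, against 113 and 107 in WT. Fgfr3 was at 611 and 486, against 782 and 778 in WT. Panx3 was at 62.7 and 68.8, against 65.5 and 83.6 in WT, lower in each limb but overlapping across limbs. Alpl was at 50.2 and 41.9, against 6.68 and 12.9 in WT. A ratio shows unequal change between its genes and does not say which of them changed.

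**Figure D5:**
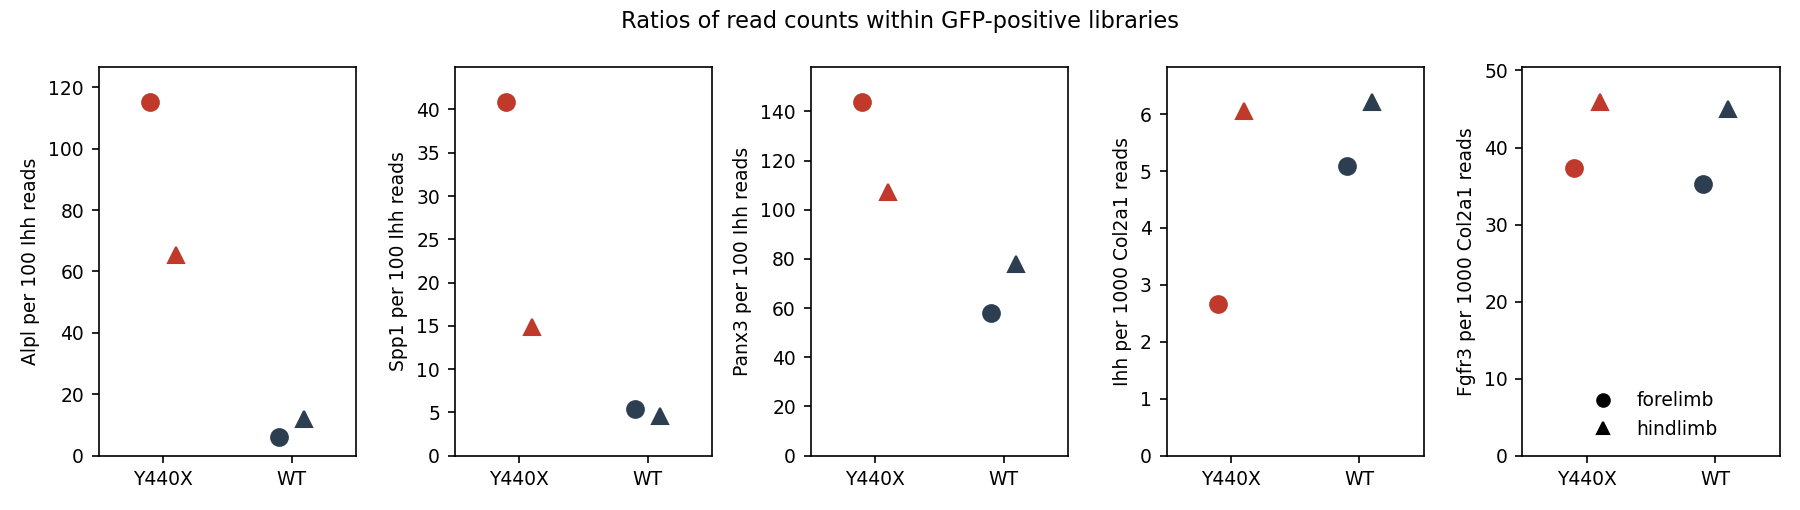
Within-library ratios of reads in Y440X and WT GFP-positive libraries, with circles for forelimb and triangles for hindlimb. Alpl per 100 Ihh reads lies at 115 and 65.3 in Y440X, above 5.93 and 12.04 in WT, while Fgfr3 per 1000 Col2a1 reads overlaps between genotypes.

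Forelimb and hindlimb, the only labelled difference within a group, differed for 1 of the 7 genes. Spp1 was lower in hindlimb in 4 of 4 groups, with 5.35 CPM in hindlimb against 8.45 in forelimb of Y440X GFP-positive cells, and 5.60 against 8.95 in WT GFP-negative cells. The log2 value of hindlimb over forelimb was -0.59 ± 0.14 (edgeR adjusted p = 0.0275), where 4.87% of all listed genes were called, 4.06% as lower in hindlimb and 0.812% as higher. The call was lost with limma on log2(CPM + 0.5) (adjusted p = 0.0743) and on log2(CPM + 0.1) (0.0545). It was also lost without either Y440X GFP-positive library (0.108 for each) or either WT GFP-negative library (0.145 and 0.156). The other 6 genes were not called, with adjusted p from 0.485 to 0.973.

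Some other genes of the same pathways were among the listed genes. All of these were listed for a change between genotypes in at least 1 fraction, so counts called partly restate that selection. Of 20 genes known from prehypertrophic and hypertrophic chondrocytes 8 were in the tables, 4 of them besides Ihh, Fgfr3, Panx3 and Phospho1. Of these 4, 3 were lower in Y440X GFP-positive cells. Foxa3, a transcription factor of hypertrophic chondrocytes, averaged 0.884 ± 0.115 CPM in Y440X and 14.5 ± 3.05 CPM in WT (SD, n = 2 each; log2 fold change -4.03 ± 0.29, edgeR adjusted p = 6.4e-10). Smpd3, a sphingomyelinase needed for mineralization, averaged 33.8 ± 3.80 CPM in Y440X and 86.5 ± 1.86 CPM in WT (-1.36 ± 0.24, edgeR adjusted p = 7.2e-05). Enpp1, which makes the pyrophosphate that Alpl removes, averaged 34.3 ± 5.58 CPM in Y440X and 69.7 ± 16.7 CPM in WT (-1.02 ± 0.25, edgeR adjusted p = 0.0013). With TMM over the listed genes Foxa3 and Smpd3 were called lower and Enpp1 was not. Mef2c, a driver of hypertrophy that endothelial and muscle cells also use, was not called in GFP-positive cells (-0.46 ± 0.25, edgeR adjusted p = 0.135), where its sign changed with TMM. In GFP-negative cells Foxa3, Enpp1 and Mef2c were called lower (Mef2c -1.08 ± 0.18, edgeR adjusted p = 0.0011). Foxa3 was near the limit of detection there (-1.98 ± 0.80, edgeR adjusted p = 0.047). It had 0.0196 and 0.0208 CPM in Y440X forelimb and hindlimb, against 0.106 and 0.0674 CPM in WT. With TMM 0 of the 4 were called in GFP-negative cells, and Enpp1 and Smpd3 changed sign.

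Of 28 osteoblast and mineralization genes 6 were in the tables. Besides the 3 osteogenic genes these were Smpd3, Enpp1 and Dlx3, a homeobox gene of osteoblasts and epidermis. All 3 were lower in Y440X GFP-positive cells, with Dlx3 at 5.76 ± 0.502 CPM in Y440X and 30.8 ± 5.71 CPM in WT (log2 fold change -2.42 ± 0.25, edgeR adjusted p = 1.7e-07). Smpd3, Enpp1 and Dlx3 thus had the opposite sign to Alpl in these cells, also with TMM. Of 16 hedgehog pathway genes only Ihh and Dhh, another hedgehog ligand, were listed. Dhh averaged 0.332 ± 0.0350 CPM in Y440X GFP-positive cells and 0.839 ± 0.0234 CPM in WT (-1.33 ± 0.40, edgeR adjusted p = 0.0053), and was not called with TMM. Of 20 FGF pathway genes 3 were listed, which besides Fgfr3 were the ligand Fgf17 and Snai1, a transcriptional repressor induced by FGF signalling. Snai1 averaged 103 ± 25.4 CPM in Y440X GFP-positive cells and 334 ± 0.00543 CPM in WT (-1.70 ± 0.26, edgeR adjusted p = 1.9e-05). Fgf17 was not called in GFP-positive cells (-0.49 ± 0.32, edgeR adjusted p = 0.203) and was lower in Y440X GFP-negative cells (-1.48 ± 0.41, 0.0080), but not with TMM, which also changed its sign in GFP-positive cells. None of 18 other matrix metalloproteinase genes was in the tables. All 16 early cartilage genes in the tables, of 20 on the list, were lower in Y440X GFP-positive cells, with a median log2 fold change of -1.88 (12 of 16 called lower and a median of -1.21 with TMM), against -1.59 for the 4 chondrocyte genes and -0.47 for all listed genes.

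The genes whose pattern over the 8 libraries was most like each of the 7 were ranked by Pearson's r of log2(CPM + 0.5), among genes with a mean of at least 1 CPM. These values describe 8 points in 4 groups that share pools of cells and differ in depth. Ihh was most like Myh14 and Smpd3 (0.997 each) and Chdh (0.996). Fgfr3 was most like the cartilage genes Sox5 and Hapln1 (0.997 each) and Cytl1 (0.996), and Panx3 like Smpd3 (0.997), Col9a2 and Col9a3 (0.996 each). Phospho1 was most like Fam89a (0.992), Zfp385c (0.991) and Foxa3 (0.989). The osteogenic genes had other neighbours. Alpl was most like Shisa3 (0.946), Dnah5 (0.852) and Igfbp7 (0.831), Spp1 like Igfbp7 (0.958), Asgr1 (0.937) and the transcription factor gene Maf (0.932), and Mmp13 like Adm (0.982), Plau (0.979) and Gucy1a3 (0.971). Among the 7, r was 0.981 to 0.992 between Ihh, Fgfr3 and Panx3 and 0.826 to 0.887 between Phospho1 and those 3. It was 0.759 between Alpl and Spp1, 0.127 between Alpl and Mmp13, and 0.336 between Spp1 and Mmp13.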

How the data were processed

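RNA of 8 libraries was sequenced after poly(A) selection with a stranded kit, per the labels' protocols. Per the submitters' processing notes, featureCounts, edgeR 3.36.0, GRCm38 and mm10 were named, with the aligner not given in the sources used here. In the 4 deposited tables every gene has an FDR under 0.05 and changes by at least 1 on the log2 scale. Per the file headers, the columns hold log2 fold changes (Y440X over WT), average log2 CPM, F statistics (a score), p-values, FDR and, as another kind of quantity, gene lengths in bases. The per-library columns are headed RPKM, but the deposited values are counts. They are whole in 100% of cells, and divided by the authors' CPM they give 1 library size whatever the gene length. The tables hold 303 genes for GFP-positive and 510 for GFP-negative cells, 74 of them in both, of 16223 to 16265 genes tested by the authors.

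Effective library sizes were found by a least-squares solution from deposited log2 fold changes and log2 CPM of 165 genes with at least 200 counts. They returned those fold changes within 0.0013. A gene at 1 CPM therefore rests on 38.6 to 51.1 reads. RPKM in the text were computed from counts, these sizes and the deposited lengths. Counts were tested with edgeR 4.0.16 (quasi-likelihood, R 4.3.3) over all 739 genes, with no filter, two-sided, Benjamini-Hochberg adjusted, and checked on simulated data. Intervals of count ratios are exact 95% intervals and cover counting error only. Reads carried no molecular identifiers. The planned choice of count model or log-scale model was settled by the unit.

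The 7 genes, the gene lists and the tests were chosen with earlier results of these data known. Named genes are the 7, listed genes of the pathway lists that were called between genotypes, and the 3 genes most like each. For gene lists, counts over all listed genes stand in for a list test. Motifs were matched exactly, on both strands.

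The forelimb and hindlimb numbers pair the 2 fractions of a genotype, because both were sorted from 1 pooled suspension per limb, per the labels' protocols. Genotypes share the limb but no animals. Limb differences (hindlimb over forelimb, 541 genes) correlated at 0.223 between the Y440X fractions, 0.136 between the WT fractions, 0.445 between genotypes for GFP-positive cells and 0.478 for GFP-negative ones, as descriptions. The alternatives were DESeq2 1.42.0, limma 3.58.1 on log2(CPM + 0.5) and log2(CPM + 0.1), TMM over the listed genes, a filter at a mean of 1 CPM, limb as a block, all 8 libraries in 1 fit, and each library left out. With a library left out, the lone library of its group was assumed to vary like the others. There were 0 sample columns left unused.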

Additional observations from a re-analysis of the deposited data

Results flagged for a closer look

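The Y440X effect differed between GFP-positive and GFP-negative cells for 4 of the 7 genes, by the test of the difference itself over 8 libraries (edgeR quasi-likelihood, Benjamini-Hochberg over 739 genes). Of all listed genes 49.9% were called in the same test, so 4 of 7 is near the share of any listed gene. For Alpl the GFP-positive effect exceeded the GFP-negative effect by 2.57 ± 0.38 on the log2 scale (adjusted p = 0.0007), and it was positive in GFP-positive and negative in GFP-negative cells. For Spp1 the difference was 2.58 ± 0.46 (adjusted p = 0.0013), and for Mmp13 it was 4.88 ± 1.14 (adjusted p = 0.0015) on 0 to 9 reads per GFP-positive library. For Phospho1 it was -1.44 ± 0.54 (adjusted p = 0.040), with a GFP-negative effect that was not called. The Phospho1 call was lost with DESeq2 (0.115) and when any of 6 of the 8 libraries was left out. Groups of 2 libraries are too small for a test of single outlying libraries.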

How the results depend on the processing

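Of the results called over the 7 genes, 172 of the values from other settings kept direction and call, 9 lost the call and 1 reversed. Of the values with a library left out, 116 kept both and 16 lost the call. TMM over the listed genes moved most, but its assumption that most genes do not change need not hold for genes listed for a change. The all-gene median shifted by 0.66 for GFP-positive cells, by 1.07 for GFP-negative ones, by 0.34 between WT fractions and by -0.63 for the interaction. With it, calls over all listed genes were 223 higher and 162 lower in GFP-positive cells (117 and 296 with the authors' scaling) and 211 and 121 in GFP-negative cells (94 and 497). They were 140 and 204 for the interaction (235 and 134), and 10 and 22 for limb (6 and 30). In GFP-negative cells TMM left 2 of the 7 genes called, and 332 of all listed genes in place of 591, with Fgfr3 at 0.049 and Phospho1 at 0.79. It put Alpl at 0.066 between WT fractions and at 0.045 between limbs. A minimum of 1 CPM left 3 of the 7 called between WT fractions and 2 for the interaction, since Phospho1 and Mmp13 were filtered out. The Panx3 interaction was -0.39 with limma on log2(CPM + 0.5). Between limbs Panx3 was -0.11 with DESeq2, -0.080 with limma at 0.5 and -0.27 at 0.1, and Ihh -0.013 at 0.1. limma called 0 of the 7 between limbs, and 4 (at 0.5) and 10 (at 0.1) of all listed genes in place of 36. With each library left out, all-gene calls in GFP-positive cells ran from 228 (without WT forelimb) to 384, in place of 413. Limb calls ran from 0 to 1 of the 7 and from 0 to 43 of all listed genes. Leave-out ranges were -0.052 to 0.61 for Spp1 between genotypes in GFP-positive cells, -0.13 to 0.20 for Mmp13 between Y440X fractions and -0.71 to 0.034 for Alpl between WT fractions. Between limbs they were -0.33 to 0.30 for Ihh, -0.22 to 0.19 for Panx3, -0.17 to 0.13 for Fgfr3 and -0.26 to 0.17 for Alpl. Limb as a replicate block changed 0 of 35 calls of the 7 genes over the 5 comparisons between groups. Other causes of these moves were not tested. Counts of under 50 reads limit Mmp13 in every library.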
